A study of Mus musculus with 6 samples.

Results

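The 8 genes described here encode 5 secreted proteases of the Adamts family (Adamts1, Adamts4, Adamts5, Adamts9 and Adamts10), the proteoglycan versican (Vcan), and a pair of tissue inhibitors of metalloproteases, Timp1 and Timp3. They were taken by symbol from the 50559 genes of a deposited expression table of mouse inguinal lymph nodes, and all 8 were found there. RNA was sequenced from 3 Naringin libraries, from nodes of mice that ate 200 mg/kg of the citrus flavanone glycoside naringin each day with their food, and from 3 Control libraries. The labels name no treatment for Control. Strain, sex, age and length of feeding are unstated in the labels. The labels also leave unsaid whether each library is a different animal, so the spread between libraries of a group may be partly technical.

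Adamts proteases are zinc enzymes made as inactive precursors and released into the matrix, where thrombospondin repeats and other domains of their tail guide them to their substrates. Several of them cut hyalectans, the family of large chondroitin sulphate proteoglycans that bind hyaluronan and to which versican and aggrecan belong. Versican is made by fibroblasts and smooth muscle and, in inflammation, by monocytes and macrophages, and in mouse and human tissues its cleavage accompanies the remodelling of loose matrix. Timp3 stays bound to the matrix and inhibits several Adamts proteases as well as matrix metalloproteases and Adam sheddases, whereas Timp1 is soluble and acts mainly on matrix metalloproteases. In a lymph node the matrix is made largely by reticular fibroblasts, which wrap it into the conduits that carry lymph.

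Gene-assigned reads numbered 13074180 to 14976422 per library, so 1 read was worth 0.0668 to 0.0765 CPM. CPM, the unit of the deposited table, is a gene's reads per 1000000 reads of its library. Libraries differed by more than sampling noise in every pair, and Control 3 stood furthest apart: its chi-square per degree of freedom against the other libraries ran from 39.3 to 61.6, against 7.68 to 27.7 for pairs without it. Cd79a, a B cell receptor component that marks the node itself, averaged 860 ± 127 CPM in Naringin libraries and 803 ± 74.3 CPM in Control libraries. The 6 lymphocyte markers it belongs to were split, 3 averaging higher with naringin and 3 lower. They summed to 2516 to 2983 CPM in Naringin and 2567 to 2716 CPM in Control libraries. The skin and muscle markers Krt14, Krt5, Acta1 and Ckm together stayed at or below 0.801 CPM in each library.

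RefSeq promoter windows on GRCm38.p6 were found for 5 of the 8 members: Adamts1, Adamts9, Timp1, Timp3 and Vcan. The 250 bases before the annotated start are shown for the 3 of these genes with the largest differences between the groups. Capitals mark matches on either strand to any of 6 short motifs, whose letters are given after the sequences.
Adamts1, chr16:85803114-85803363, minus strand: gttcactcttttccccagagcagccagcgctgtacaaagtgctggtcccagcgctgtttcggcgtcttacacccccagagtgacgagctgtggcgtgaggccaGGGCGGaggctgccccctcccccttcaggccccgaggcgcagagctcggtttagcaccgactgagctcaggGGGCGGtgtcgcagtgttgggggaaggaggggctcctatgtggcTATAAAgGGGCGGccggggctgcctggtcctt
Adamts9, chr6:92943535-92943784, minus strand: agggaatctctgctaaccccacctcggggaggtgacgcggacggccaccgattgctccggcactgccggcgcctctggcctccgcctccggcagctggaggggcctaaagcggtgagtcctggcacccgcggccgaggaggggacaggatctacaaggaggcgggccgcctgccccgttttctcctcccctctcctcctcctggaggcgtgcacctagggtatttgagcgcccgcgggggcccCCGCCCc
Vcan, chr13:89742513-89742762, minus strand: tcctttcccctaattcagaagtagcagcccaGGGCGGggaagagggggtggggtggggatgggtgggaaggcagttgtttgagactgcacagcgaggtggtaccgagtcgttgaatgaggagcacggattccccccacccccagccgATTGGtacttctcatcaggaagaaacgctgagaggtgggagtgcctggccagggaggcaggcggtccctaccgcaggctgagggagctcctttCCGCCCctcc

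The Adamts1 window held a TATA box, searched as TATAAA, that begins 32 bases before the start, with a GC box just after it, at 25 bases before the start. Further GC boxes, searched as GGGCGG, began at 76 and 147 bases. TATA boxes were found in 12.4% of the 32851 promoter windows of the table, and in none of the other 4 member windows. GC boxes were found in all 5 member windows and in 32.7% of all windows, with 2 in Vcan and 1 each in Adamts9, Timp1 and Timp3. Vcan and Timp1 each held a CCAAT box, searched by the letters of its name, which 33.8% of all windows hold. Timp1 alone of the 5 held the core of a cyclic AMP response element (searched as TGACGT), 84 bases before its start, which 6.47% of all windows hold. The AP-1 site, TGANTCA with any base at N, is in 6.75% of all windows and was in 0 of the 5. The E-box CACGTG is in 6.02% of all windows and was likewise in 0 of the 5. No match overlapped one of another motif. The 5 windows were 54.4% to 71.2% G and C, against a median of 52.4% over all windows, and a GC-rich window holds GC boxes more often by its composition. These letter matches describe the windows and were not tested for binding.

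The question asked of the members was how their levels differ between Naringin and Control nodes. Mean log2(CPM + 1) was higher with naringin for 7 of the 8, and for 56.7% of all genes tested. Adamts1, Adamts4, Adamts9 and Vcan differed most. The members were chosen with this contrast known, so its values are given as a description with no test. In bulk samples such as these, fewer cells of a type and less RNA per cell cannot be told apart. In limma, run over the 14873 genes that averaged 1 CPM or more, 0 genes passed an adjusted p of 0.05 (0% of the genes), and 213 had an unadjusted p under 0.05, 145 of them higher and 68 lower with naringin (115 and 118 with upper-quartile scaling). Single libraries moved that count: it was 132 without Naringin 1, 72 without Naringin 2, 513 without Naringin 3 and 1391 without Control 3, the last being 398 higher and 993 lower. The edgeR test on recovered reads also called 0 genes, and DESeq2 called 3. All 8 members passed the filter. Their median log2 fold of CPM + 1, Naringin minus Control, was 0.60, beside 0.02 over all genes tested, and it follows from how they were chosen.

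Adamts1, a protease that cuts versican and aggrecan and is best known for its part in ovulation in mice, had 16.4, 7.68 and 12.1 CPM in Naringin 1, 2 and 3, against 4.74, 5.20 and 4.14 CPM in Control 1, 2 and 3. Every Naringin library was higher than every Control library, and the Control libraries lay close together. The means were 12.1 ± 4.37 CPM with naringin and 4.70 ± 0.532 CPM in Control (SD, n = 3 each), a log2 fold of 1.15 ± 0.26 (limma SE) that ran from 0.91 to 1.41 with 1 library left out at a time. These levels rest on 533 Naringin and 196 Control reads. Per gene-assigned read, the ratio of Naringin over Control was 2.58 (exact binomial 95% interval 2.18 to 3.05, for counting error and not the spread between libraries).

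Adamts4, an aggrecan- and versican-cutting protease, was rarer, with 5.03, 3.47 and 2.80 CPM in the Naringin libraries and 1.22, 1.08 and 1.80 CPM in the Control libraries. Here too the groups did not overlap. The log2 fold was 0.99 ± 0.24 (SE) from 167 Naringin and 58 Control reads. The ratio per gene-assigned read was 2.73 (exact binomial 95% interval 2.01 to 3.75, counting error only). At levels this close to 1 CPM the pseudocount of 1 CPM sets the fold: it was 1.30 with a pseudocount of 0.25 CPM, 0.62 with 3 CPM and 1.43 in edgeR. With 1 library left out it ran from 0.81 to 1.14.

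Adamts5, the other main aggrecan-cutting protease in mouse cartilage, had 17.9, 11.6 and 13.7 CPM in the Naringin libraries, against 11.5, 10.0 and 11.3 CPM in the Control libraries. The groups were apart only narrowly, with Naringin 2 next to Control 1. The log2 fold was 0.35 ± 0.19 (SE), between 0.19 without Naringin 1 and 0.48 without Naringin 2. Adamts1 and Adamts5 lie on the same strand of chromosome 16 with no protein-coding gene between them in RefSeq.

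Adamts9, a versican-cutting protease with a long row of thrombospondin repeats, had 11.3, 6.28 and 8.55 CPM in the Naringin libraries and 3.90, 6.29 and 3.01 CPM in the Control libraries. Control 2 was level with Naringin 2, so the groups overlapped. The log2 fold was 0.86 ± 0.28 (SE), between 0.67 without Control 3 and 1.10 without Control 2.

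Adamts10, which binds fibrillin microfibrils and does little as a protease, stood apart from the other 4. It had 124, 116 and 150 CPM in the Naringin libraries and 147, 150 and 112 CPM in the Control libraries, with full overlap of the groups. Its log2 fold was -0.07 ± 0.16 (SE) and had the other sign, at 0.01, without Naringin 2 and without Control 2. Adamts10 made up 71.1% to 80.2% of the summed CPM of the 5 Adamts members in Naringin libraries and 84.7% to 87.3% in Control libraries. Without it, Adamts1, Adamts4, Adamts5 and Adamts9 summed to 50.6, 29.0 and 37.1 CPM in Naringin 1, 2 and 3 and to 21.3, 22.6 and 20.2 CPM in Control 1, 2 and 3.

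In 3 of the 8 members, Adamts1, Adamts4 and Adamts5, each Naringin library exceeded each Control library, and 0 members showed the opposite. Of all genes tested, 3.36% were apart in this way with Naringin higher and 2.29% with Naringin lower. The count for the members comes from the contrast by which they were chosen.

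**Figure D1:**
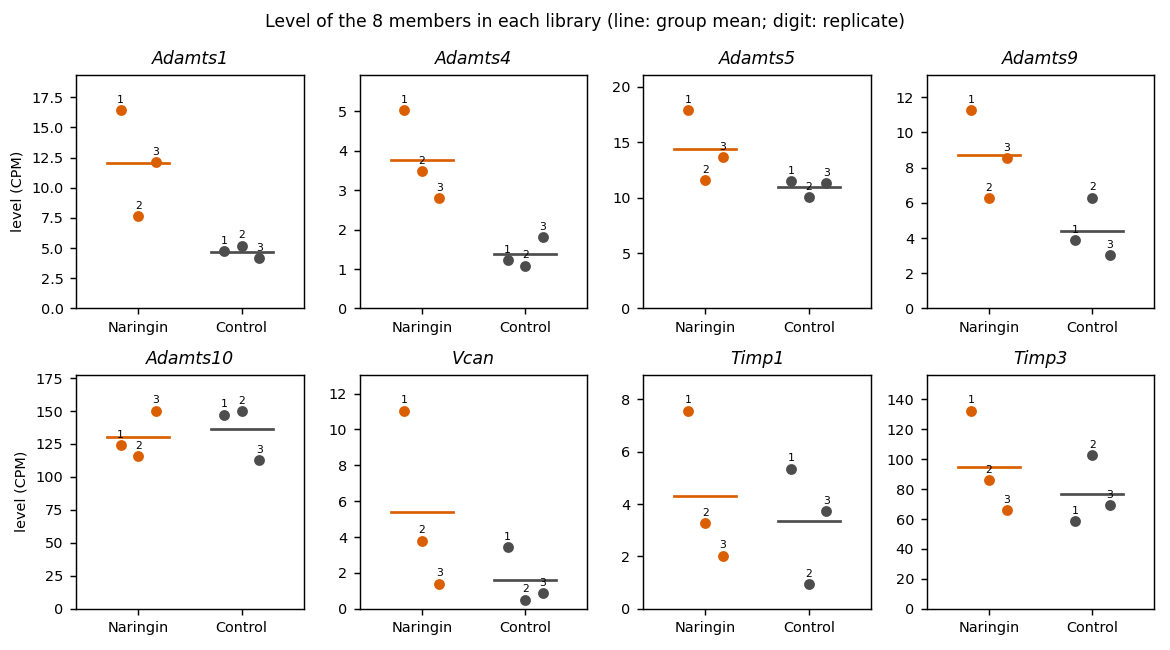
Level of each of the 8 members in CPM (linear axis from 0), with 3 Naringin libraries in orange on the left and 3 Control libraries in grey on the right; the digit over a point is the replicate and the line is the group mean. The groups are apart for Adamts1, Adamts4 and Adamts5, and Naringin 1 is the highest library for 7 of the 8 genes, Adamts10 being the exception.

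Versican, the substrate in the set, varied most between libraries. Vcan had 11.1, 3.81 and 1.40 CPM in Naringin 1, 2 and 3, which are 165, 57 and 20 reads, against 3.44, 0.506 and 0.869 CPM in Control 1, 2 and 3, which are 45, 7 and 13 reads. Naringin 1 was high, Control 1 was almost level with Naringin 2 and above Naringin 3, and the groups overlapped. The log2 fold was 1.16 ± 0.60 (SE), between 0.55 without Naringin 1 and 1.71 without Naringin 3. It also moved with the pseudocount and the tool, at 1.53 with 0.25 CPM, 0.76 with 3 CPM, 1.76 in edgeR and 1.73 in DESeq2. Reads of the splice forms of versican, which differ in their chondroitin sulphate attachment regions, are summed in these values.

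The inhibitors overlapped between the groups. Timp1 had 7.57, 3.27 and 2.03 CPM in the Naringin libraries and 5.35, 0.940 and 3.74 CPM in the Control libraries, and its log2 fold of 0.31 ± 0.50 (SE) was -0.11 without Naringin 1, -0.19 without Control 2, 0.64 without Naringin 3 and 0.66 without Control 1. Timp3 had 133, 85.9 and 65.9 CPM in the Naringin libraries and 58.6, 103 and 69.5 CPM in the Control libraries. Its log2 fold was 0.28 ± 0.28 (SE), with 0.01 without Naringin 1, 0.10 without Control 1, 0.51 without Naringin 3 and 0.50 without Control 2. Set against Timp3, the 4 rarer proteases summed to 0.382, 0.338 and 0.563 times its CPM in Naringin 1, 2 and 3 and to 0.364, 0.220 and 0.291 times in Control 1, 2 and 3. That ratio overlapped between the groups, since Control 1 lay above Naringin 2.

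Both inhibitor genes lie inside a synapsin gene on the opposite strand, Timp1 within Syn1 and Timp3 within Syn3, and no source used here gives the strand setting of the counting. In the GENCODE M21 annotation Timp1 shares 0 exon bases with Syn1, and Timp3 shares 1733 with Syn3. It is thus unknown whether reads from the shared bases were told apart by strand, or how they were counted. Syn3 averaged 1.20 ± 0.294 CPM in Naringin libraries and 0.985 ± 0.219 CPM in Control libraries, far below Timp3. Syn1 averaged 1.04 ± 0.393 CPM in Naringin libraries and 1.05 ± 0.539 CPM in Control libraries, and in Control 2, at 1.16 CPM, it lay above Timp1 at 0.940 CPM. Syn2, the synapsin gene that hosts Timp4, had a log2 fold of 0.11, between -0.11 without Naringin 1 and 0.26 without Naringin 2.

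**Figure D2:**
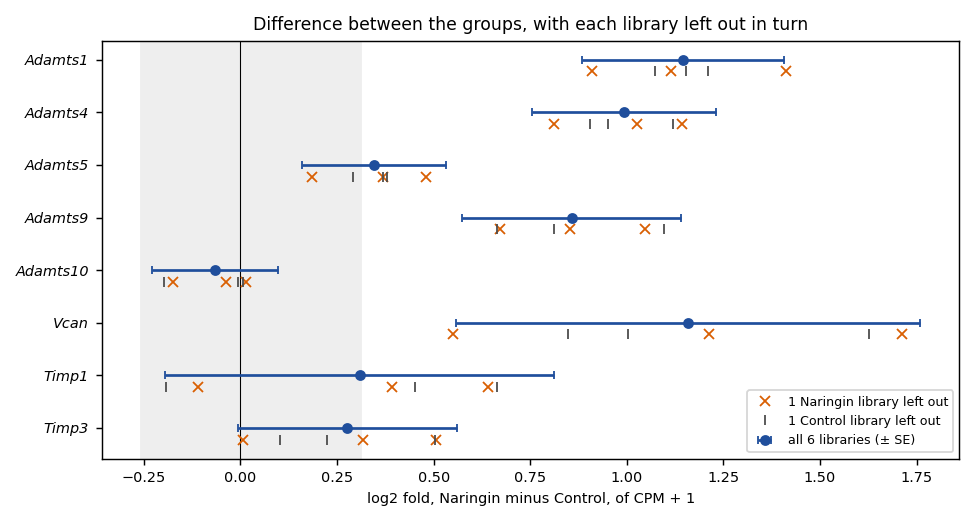
Log2 fold of CPM + 1, Naringin minus Control, for each member with all 6 libraries (blue point, bar ± limma SE) and with 1 Naringin (orange cross) or 1 Control (grey tick) library left out; the grey band spans the 5th to 95th percentile of all genes tested, -0.26 to 0.31. Adamts1, Adamts4, Adamts9 and Vcan stay above the band in all of these fits, and the signs of Adamts10 and Timp1 turn when certain single libraries are left out.

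Levels of different genes were compared per kilobase of exon, using GENCODE M21 lengths that count every annotated exon once. Adamts10 was first, with 15.7 ± 2.20 CPM per kb in Naringin libraries and 16.5 ± 2.52 CPM per kb in Control libraries. Timp3 followed with 11.6 ± 4.20 and 9.46 ± 2.84, and Timp1 with 4.83 ± 3.27 and 3.77 ± 2.52 CPM per kb, each with Naringin before Control. The other members were at or below 3.10 CPM per kb in every library. Adamts1 had 2.28 ± 0.824 CPM per kb with naringin and 0.886 ± 0.100 in Control. Its mean ranked above that of Adamts5 with naringin, where Adamts5 had 1.33 ± 0.299, and below it in Control, where Adamts5 had 1.01 ± 0.0720. In Control 2 Adamts1 was nevertheless the higher, at 0.982 against 0.931 CPM per kb. Adamts4, Adamts9 and Vcan were lowest, with Vcan at 0.375 ± 0.348 CPM per kb with naringin and 0.111 ± 0.111 in Control. Timp3 lay above Timp1, Timp1 above Adamts1, and Adamts5 above Adamts4 in 6 of 6 libraries. Adamts10 lay above Timp3, and Adamts9 above Vcan, in 5 of 6, with Naringin 1 the exception in both. Adamts1 lay above Adamts5, and Adamts4 above Adamts9, in 4 of 6. The range over the 6 libraries overlapped between all of these neighbours.

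Other genes of the pathway were taken from a list of 121 genes chosen by role, of which 94 passed the filter. In limma 0 of the 94 passed the adjusted threshold in either direction, with 0 also in edgeR and in DESeq2. At an unadjusted p under 0.05 there were 3, all higher with naringin: Adamts20, Cemip2 and Adam12. That is 3.19% of the 94 genes, beside 0.975% of all genes tested, and 0 of the 94 were lower, beside 0.457%. This count rests on single libraries: it was 0 higher without Naringin 1, 1 without Naringin 2, 12 without Naringin 3, 1 without Control 1, 5 without Control 2 and 4 without Control 3, with 1 lower without Control 2 and 4 lower without Control 3. The groups were apart with Naringin higher in 3 genes (3.19%, beside 3.36% of all genes tested) and with Naringin lower in 1 (1.06%, beside 2.29%). The log2 fold of CPM + 1 was positive in 61 and negative in 33, with a median of 0.07 beside 0.02 over all genes tested. Below, counts of higher and lower genes go by this sign, which can differ from that of the mean CPM.

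Of the other Adamts proteases, 10 of 11 tested had positive log2 folds, with a median of 0.16. Adamts20, a versican-cutting relative of Adamts9, had 5.76, 4.54 and 4.41 CPM in the Naringin libraries and 2.52, 4.26 and 2.34 CPM in the Control libraries. The groups were apart, Control 2 lying just below Naringin 3, and the log2 fold was 0.57 ± 0.23 (SE). Adamts13, which cuts von Willebrand factor, had a log2 fold of 0.60 ± 0.35 with Naringin 1 the highest library at 7.17 CPM, and was 0.26 without that library and 0.88 without Naringin 3. Adamts6, the most abundant of this group, averaged 25.8 ± 0.851 CPM in Naringin and 26.4 ± 10.9 CPM in Control nodes, and its log2 fold of 0.06 was -0.32 without Control 3 and 0.31 without Control 2. Adamts14, a procollagen-processing protease, had 7.21 ± 0.732 and 6.59 ± 1.44 CPM with Naringin first, and a log2 fold of 0.13 that was -0.02 without Control 3 and 0.26 without Control 2.

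Of the other inhibitors 1 of 3 tested had a positive log2 fold. Timp2 averaged 163 ± 51.9 CPM in Naringin and 170 ± 42.5 CPM in Control libraries, with a log2 fold of -0.08 that was 0.15 without Naringin 3, 0.11 without Control 3 and -0.31 without Naringin 1. Timp4 averaged 16.7 ± 3.74 CPM in Naringin and 19.5 ± 6.79 CPM in Control libraries, and its log2 fold of -0.19 was 0.07 without Control 2 and -0.36 without Control 1. Among the genes that activate, anchor or clear Adamts proteases, 3 of 5 tested had positive log2 folds. The proteoglycan Sdc4 and the endocytic receptor Lrp1 had log2 folds of 0.15 and 0.08, the second being -0.33 without Naringin 1 and 0.47 without Naringin 3, and the membrane protease Mmp17, known to activate Adamts4, had -0.06. The Adamts-like proteins, relatives without a protease domain, were split evenly, with Adamtsl4 at -0.20 and Adamtsl3 at 0.07.

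Of the hyalectan, link protein and hyaluronan genes, 7 of 8 tested had positive log2 folds, with a median of 0.19. No hyalectan was among these 8. Bcan and Ncan fell below the filter, and aggrecan (Acan) had no reads. Cemip2, which has been described as a cell-surface hyaluronidase, had 75.8, 57.2 and 40.4 CPM in the Naringin libraries and 32.0, 44.4 and 37.5 CPM in the Control libraries. Naringin 3 lay below Control 2, so the groups overlapped, and the log2 fold was 0.56 ± 0.23 (SE), with 0.35 without Naringin 1 and 0.79 without Naringin 3. The hyaluronan synthase Has2 averaged 4.43 ± 0.942 CPM in Naringin and 2.89 ± 1.00 CPM in Control nodes, a log2 fold of 0.50 ± 0.25 that was 0.29 without Control 1 and 0.67 without Control 2, and the hyaluronan receptor Cd44 had 176 ± 27.9 and 156 ± 16.4 CPM in the same order. Among matrix partners of versican, 4 of 5 tested had positive log2 folds. Fibronectin (Fn1) and tenascin C (Tnc) had log2 folds of 0.51 and 0.29, with -0.004 and -0.06 without Naringin 1 and 0.93 and 0.69 without Naringin 3. The fibrillin Fbn2 had 0.51, between 0.16 without Naringin 2 and 0.69 without Naringin 1.

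The enzymes that build chondroitin sulphate chains were balanced, with 8 of 17 tested higher and a median log2 fold of -0.02. Chsy1, a chain polymerase, averaged 60.5 ± 4.71 CPM in Naringin and 50.7 ± 7.07 CPM in Control nodes. Its groups were apart only narrowly, with 55.8 CPM in Naringin 3 and 55.4 CPM in Control 2. Its log2 fold of 0.26 was 0.14 without Control 3 and 0.33 without Control 2. Chst11, a sulphotransferase, had a log2 fold of 0.35, Chst3 had 0.04 and B3gat3 had 0.002. Of other proteoglycans 10 of 16 had positive log2 folds, with Srgn at 0.12, Dcn at -0.05, Gpc1 at -0.32 and Ogn at -0.55. Dcn, made by fibroblasts, was at -0.60 without Naringin 1, -0.31 without Control 1, 0.57 without Naringin 3 and 0.32 without Control 3.

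Proteases that Timps restrain were also measured. Matrix metalloproteases were divided evenly, 7 of 14 tested being higher, with log2 folds of 0.45 for Mmp19, 0.24 for Mmp14 and 0.28 for Mmp3, the last being -0.44 without Naringin 1, -0.53 without Control 2, 1.07 without Naringin 3 and 0.89 without Control 3. Of the Adam sheddases 6 of 8 were higher. Adam12 had 21.8, 16.3 and 13.7 CPM in the Naringin libraries, against 11.6, 11.3 and 11.4 CPM in the Control libraries, so its groups were apart and its Control values almost the same. Its log2 fold was 0.53 ± 0.19 (SE). Adam17, which sheds tumour necrosis factor and is restrained by Timp3, had a log2 fold of 0.34 ± 0.16, and Adam10 had 0.08.

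**Figure D3:**
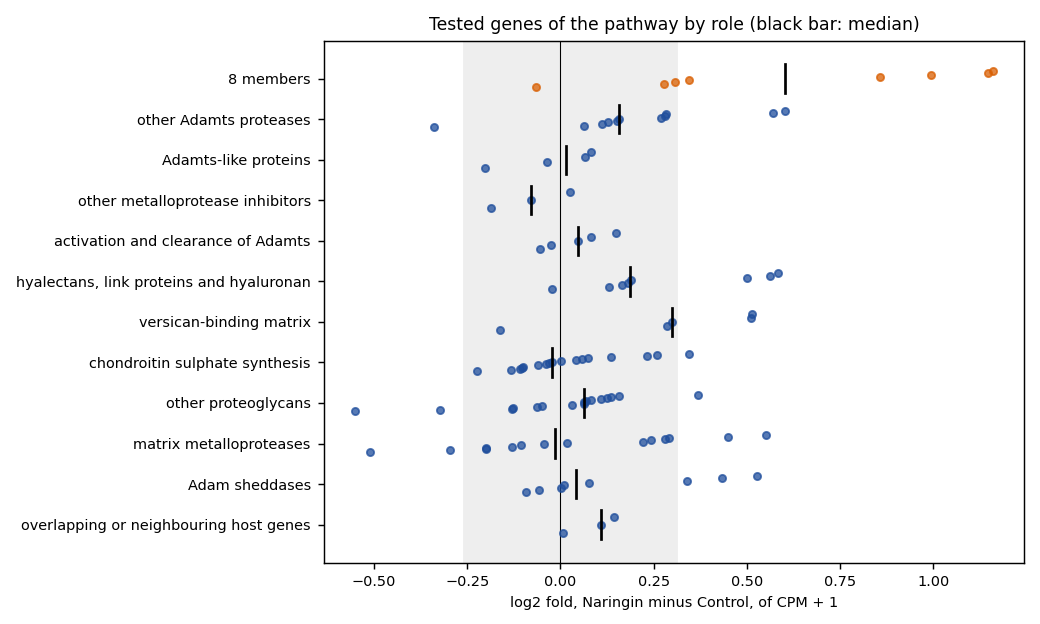
Log2 fold of CPM + 1, Naringin minus Control, of the 8 members (orange) and of the tested genes of the pathway list by role (blue, 1 point per gene); black bars are medians and the grey band spans the 5th to 95th percentile of all genes tested. The medians of the role groups lie between -0.08 and 0.30, within the band. The band is for single genes and medians spread less, so this place within it is no test. The members' median is 0.60, which follows from how they were chosen.

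Markers of the cells that could hold the members were set beside them. Naringin 1, the highest library for 7 of the 8 members, also had the highest summed markers of fibroblasts and reticular cells (1883 CPM), blood endothelium (793 CPM), mural cells (339 CPM), macrophages (2649 CPM) and neutrophils (280 CPM). Control 3 came next for fibroblasts (1338 CPM), macrophages (2459 CPM) and neutrophils (237 CPM). It had the lowest Adamts1, Adamts9 and Adamts10 of all 6 libraries and the highest Adamts4 of the Control libraries, and its other 4 members lay between the values of Control 1 and Control 2. All 10 fibroblast markers were tested and 7 had positive log2 folds. Their sums were 540 to 1883 CPM in Naringin and 744 to 1338 CPM in Control libraries. Of the mural markers 5 of 6 tested had positive log2 folds, with a median of 0.32. Mural sums were 195 to 339 CPM in Naringin and 167 to 198 CPM in Control libraries. Acta2, the smooth muscle actin, had 87.2, 49.7 and 47.1 CPM in the Naringin libraries and 30.1, 35.7 and 43.2 CPM in the Control libraries, without overlap.

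Monocyte markers summed to 2282 to 3708 CPM in Naringin and 2394 to 3863 CPM in Control libraries, with positive log2 folds in 4 of 6. Lyz2 made up most of that sum. Chil3, Treml4 and Ccr2 had log2 folds of 1.07, 0.66 and 0.30 and were each highest in Naringin 1, and F13a1 had -0.07. The groups overlapped for Chil3, Ccr2 and F13a1 and were apart for Treml4. Macrophage markers summed to 935 to 2649 CPM in Naringin and 1200 to 2459 CPM in Control libraries, with positive log2 folds in 3 of 8. Neutrophil markers were higher in 6 of 6 tested, at 52.3 to 280 CPM in Naringin and 58.2 to 237 CPM in Control libraries, and the neutrophil antigen gene Ly6g was at 0 in 2 libraries. Adipocyte markers were lower in 6 of 6 tested, at 35.2 to 66.4 CPM in Naringin and 50.1 to 124 CPM in Control libraries. The highest adipocyte sum was in Control 1, which also had the highest Vcan and Timp1 of the Control libraries. Adipocyte sums of Control 2 and Control 3, at 57.8 and 50.1 CPM, lay within the Naringin range. Without Control 1 the log2 folds of the adipocyte genes Fabp4 and Car3 were -0.007 and -0.37, beside -0.29 and -0.85 with all libraries. Blood endothelial sums (578 to 793 and 546 to 758 CPM) and lymphatic endothelial sums (999 to 1001 and 728 to 1379 CPM) overlapped between the groups. Ccl21a made up most of the lymphatic sum, with 715, 828 and 926 CPM in Naringin 1, 2 and 3. Lyve1 ran the other way, with 148, 100 and 46.4 CPM in these libraries. Lyve1, Prox1, Flt4 and Mmrn1 were each highest in Naringin 1, and Reln in Control 2. Immediate early genes, a sign of acute stimulation or handling, summed to 356 to 423 CPM in Naringin and 397 to 443 CPM in Control libraries, with 4 of 10 higher. The most abundant markers had these log2 folds: Dcn -0.05 and Col3a1 0.43 for fibroblasts, and Pecam1 0.03 and Egfl7 0.02 for blood endothelium. For lymphatic endothelium they were 0.44 for Lyve1 and -0.16 for Ccl21a. The pericyte gene Rgs5 had 0.34, and the adipocyte genes Fabp4 and Car3 had -0.29 and -0.85. The macrophage genes Marco and C1qa had 0.21 and -0.13, and the monocyte genes Lyz2 and Ly6c2 had 0.08 and -0.01. Neutrophil S100a9 and S100a8 had 0.57 and 0.53, and the immediate early genes Junb and Ier2 had -0.07 and -0.18. Without Naringin 1 the folds of Col3a1, S100a9, S100a8 and Marco were -0.17, -0.04, -0.02 and -0.15. They were 1.09, 1.31, 1.15 and 0.64 without Naringin 3, and 0.64, 1.46, 1.49 and 0.52 without Control 3. Also without Naringin 1, Acta2, Rgs5 and Lyve1 were at 0.42, 0.08 and 0.07, and Pecam1, Egfl7 and Lyz2 at -0.02, -0.08 and -0.08. Without Naringin 1 the log2 folds of Adamts1, Adamts4, Adamts9 and Vcan were 0.91, 0.81, 0.67 and 0.55, and those of Adamts5, Timp3, Adamts10 and Timp1 were 0.19, 0.01, -0.04 and -0.11. The part of these cell types in the members' differences was not tested.

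**Figure D4:**
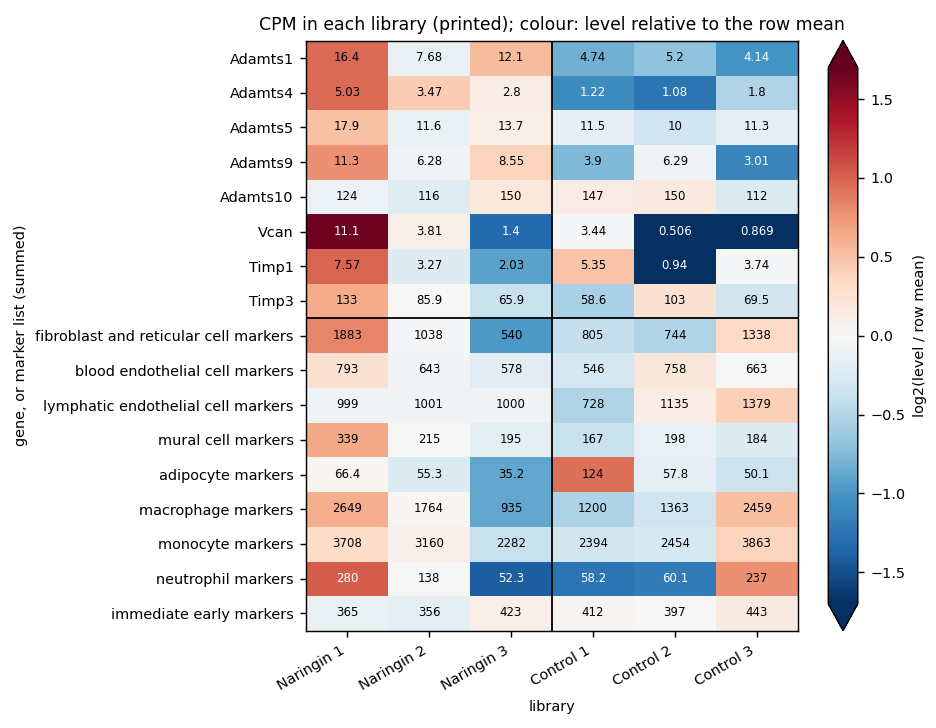
CPM of each member (upper rows) and summed CPM of marker lists (lower rows) in the 3 Naringin libraries (left) and 3 Control libraries (right). The lymphocyte list and the skin and muscle list are not drawn. The number is the level and the colour is its log2 ratio to the mean of its row, with colours ending at 1.7 in either direction. Naringin 1 is high in most rows, and Control 3 is high in fibroblast, macrophage and neutrophil markers and low in Adamts1, Adamts9 and Adamts10.

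The genes with the pattern most like that of a member were ranked by Pearson's r of log2(CPM + 1) over the 6 libraries among 12971 tested genes, leaving out predicted genes. With so many genes and 6 libraries, values near 1 are reached easily, and all points share a library and its depth. For Adamts1 the first were Sfxn5 (r = 0.983), Brca1 (0.977), Eml1 (0.976), Slc2a10 (0.976) and Fosl2 (0.970). For Adamts4 they were Acy1 (0.988), Htr7 (0.981), Ace (0.976), Stag3 (0.974) and Apold1 (0.974). For Vcan they were Lekr1 (0.990), Snx10 (0.988), Ccr1 (0.983), Fam78b (0.980) and Skint3 (0.979). For Timp3 they were Mtus1 (0.996), Rpgr (0.994), Neto2 (0.990), Tenm3 (0.985) and Cadm1 (0.984).

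When each group's mean was taken out first, so that the difference between the groups plays no part, the lists changed. Timp3 then varied most like Mtus1 (r = 0.998), Mbtps1 (0.996), the endothelial cadherin Cdh5 (0.995), the angiopoietin receptor Tek (0.995) and Ptprg (0.994). Adamts1 varied most like Nfe2l1 (0.999), Aldh5a1 (0.995), Mafg (0.993), Dock3 (0.988) and Lrrc32 (0.983). Adamts4 varied most like Ehd1 (1.000), Hdc (0.998), Smo (0.997), Ralb (0.996) and Pilrb1 (0.996). Vcan varied most like Hemgn (0.998), Ppp1r13l (0.996), Camkk1 (0.996), Uhrf1bp1 (0.992) and Rrbp1 (0.991). Some of the genes named lay close to the filter of 1 CPM, with Hemgn, Ppp1r13l and Dock3 averaging 1.19, 1.36 and 1.16 CPM. Mtus1 was the 1 gene named for the same member by both measures.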

How the data were processed

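The deposited table holds CPM, a scaling by library total alone, since every column summed to 1000000. Tools named in the submitters' processing notes are STAR 2.7.9a, Trimmomatic 0.39, Subread 1.6.0 with featureCounts, and edgeR 3.40.0, on build mm39; the annotation and the strand setting are unstated. Columns are named by number and were matched to the numbers that open the sample titles. All values came out as whole reads within 0.01 of a read (100%), which gave library totals. Log2(CPM + 1) was fitted with limma 3.58.1 in R 4.3.3 (trend, robust, 2-sided, Benjamini-Hochberg over the 14873 genes averaging 1 CPM or more, of 28727 with a read). Recovered reads were tested with the quasi-likelihood test of edgeR 4.0.16 after TMM scaling and the Wald test of DESeq2 1.42.0, and all were tested on simulated data. Members and lists were chosen with earlier results of these data known. Of each pathway role group the 2 tested genes with the smallest p and the 2 with the highest mean CPM are named. Of each marker list the 2 with the highest mean are named, Acta2 falling under that rule. Ly6g, Krt14, Krt5, Acta1 and Ckm are named as a tissue check, and Prox1, Flt4, Mmrn1 and Reln beside the lymphatic sum. Chil3, Treml4, Ccr2 and F13a1 are named beside the monocyte sum, and Acan, Bcan and Ncan as hyalectans left untested. A gene that the rule takes is not reported here. Other alternatives were pseudocounts, filters, scalings, a replicate block and leaving out each library.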

Additional observations from a re-analysis of the deposited data

How the results depend on the processing

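The counts of genes past the adjusted threshold were 0 higher and 0 lower, over all genes and over the pathway list, under both other pseudocounts, both other filters, TMM and upper-quartile scaling, limma without trend, and edgeR. DESeq2 called 1 gene higher and 2 lower, none of them in the pathway list. Leaving out each library in turn gave 0 to 1 genes higher, the 1 being without Control 3, and 0 lower. With the replicate number as a block the counts were again 0; same-numbered libraries did not deviate together (r = -0.257, -0.019 and -0.269 for numbers 1, 2 and 3), so the numbers are not read as pairs. A filter at a mean of 5 CPM left Adamts4, Vcan and Timp1 untested. Of 125 values of the members' log2 folds under other settings, 4 had another sign, all of Adamts10 or Timp1 with a library left out. Of 806 values of the other named genes, 59 had another sign, in 26 of 51 genes. The cause was not tested. Scaling moved the median of all genes by less than 0.1 on the log2 scale. Adamts4 had the fewest reads of the members in each group (167 Naringin and 58 Control), and the fewest in a single library were 7, for Vcan in Control 2.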
